A study of Homo sapiens with 22 samples.

Results

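PDPN, the gene for podoplanin (ENSG00000162493), was followed through RNA-seq of RPTEC, an hTERT-immortalized line of human renal proximal tubule epithelial cells that serves as a model of normal tubular epithelium. It is 1 of the 36859 genes of the deposited table. It was picked from these same data for its large rise in the SETD2 knockout clone KO2 and in the rescue clones against WT, so those values are given as a description with no test. SETD2 writes the histone mark H3K36me3, and it is often inactivated in clear cell renal cell carcinoma. The 22 libraries fell into 11 groups of 2. WT, WT given TGF-β at 10 ng/ml over 72 h, the knockout clones KO1 and KO2, and the group labelled KO2_Rescue were kept in 2% serum. The rescue clones Rescue1 and Rescue2 and WT lines transduced with eGFP, SOX2, OCT2 or PRRX1 grew in regular medium with 10% serum.

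Each knockout and each rescue group is a single clone. The knockouts carry Cas9-induced frameshifts in SETD2. The rescue clones derive from knockout cells that took up a lentiviral FLAG-tagged SETD2 under blasticidin, and a quality table of the study names Rescue1 and Rescue2 after the KO2 clone. The eGFP, SOX2, OCT2 and PRRX1 lines are WT cells selected with puromycin after lentiviral transduction, and the titles call the eGFP line the empty vector. All groups carry hTERT under G418 selection. Serum, transduction and clone differ between several of the groups in which PDPN differed, and their parts cannot be told apart. Nothing in the labels says that both libraries of a group came from separate cultures. The p-values thus measure the spread between both libraries of a group, pooled over the 11 groups, which may be technical.

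Podoplanin is a small membrane protein with a heavily O-glycosylated, sialic acid-rich extracellular part, a single membrane span and a short cytoplasmic tail. Its outer part binds CLEC-2 on platelets and dendritic cells, and also the chemokine CCL21, galectin-8 and CD44. Its tail binds the linker proteins ezrin, radixin and moesin, through which RhoA and its kinases act on the actin cortex. In the kidney it is known from podocytes, which gave it its name, and elsewhere it marks lymphatic endothelium, alveolar type I cells, mesothelium and fibroblastic stroma.

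PDPN lies on the plus strand of chromosome 1 at chr1:13583465-13617957 (hg38, GENCODE annotation). The 250 bases directly before its first annotated base, at chr1:13583215-13583464, are shown because they adjoin the start of a gene that was listed at 0 in WT and stood high in KO2. Capitals mark a match to a GC box.

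PDPN upstream: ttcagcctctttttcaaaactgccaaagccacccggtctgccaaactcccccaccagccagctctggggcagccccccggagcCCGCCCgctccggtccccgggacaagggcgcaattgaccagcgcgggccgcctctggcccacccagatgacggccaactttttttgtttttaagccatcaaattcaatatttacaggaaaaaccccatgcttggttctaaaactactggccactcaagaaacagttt

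The GC box GGGCGG, a site bound by SP1 and SP3, occurs 1 time in this window, on the minus strand, and 49.0% of the 20044 windows of the same length before protein-coding genes hold it on either strand. Motifs not found on either strand were the octamer ATGCAAAT bound by OCT2 (1.59% of windows), the homeodomain core TAATTA of the kind PRRX1 binds (3.48%), the SOX motif AACAATG (2.29%), the AP-1 site TGANTCA (5.45%), the STAT site TTCNNNGAA (6.01%) and the E-box CAGGTG of ZEB and SNAI factors (18.4%). The 3 RefSeq promoter windows of PDPN (GRCh38.p14), which include further starts of the gene, held none of these 6 motifs either. These matches describe the letters of the windows and say nothing of binding.

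Normalized counts are the deposited values brought back from the authors' variance-stabilized log2 scale, and a library held 11674491 to 16758645 of them in all. SETD2, the targeted gene, stood at 1956 ± 148 normalized counts in WT (SD, n = 2), 1088 ± 59.4 in KO1, 1051 ± 1.35 in KO2, 10305 ± 90.9 in Rescue1 and 10105 ± 481 in Rescue2. In the group labelled KO2_Rescue it stood at 827 ± 10.5, below KO2, which goes against the label, so its members are called the libraries labelled KO2 rescue throughout. The table also lists some genes that every cell uses at low values. Of 51 such genes 4 fell under 10 normalized counts in at least 1 library, among them the elongation factor EEF2 with a lowest value of 3.41 and the RNA polymerase II subunit POLR2A with a lowest value of 0. A row may thus not hold all of a gene's reads, which was not tested, and PDPN is said only to be listed at 0 where its value is 0. The WT libraries also differ from each other in single genes, the collagen gene COL1A1 being at 11919 in WT replicate 1 and 532 in WT replicate 2. PDPN was listed at 0 in both.

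PDPN was listed at 0 in both WT libraries, at 1.35 and 0 normalized counts in the TGF-β libraries, at 1516 and 1279 in KO1 and at 4942 and 4447 in KO2. The untreated and TGF-β-treated WT cells were thus at or near 0 while all 4 knockout libraries stood above 1000 normalized counts. In CPM, which scales every library to the same total, the KO1 libraries held 91.1 and 76.3 for PDPN and the KO2 libraries 333 and 305. In bulk RNA, more cells with PDPN and more PDPN per cell cannot be told apart.

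KO1 rose against WT by 10.44 ± 0.32 on the log2(normalized count + 1) scale (SE, 95% interval 9.75 to 11.14, adjusted p = 3e-12, limma). The rule that picked the gene did not use KO1, but it used the same WT libraries. In this comparison 25% of the 14585 genes tested were called, meaning an adjusted p under 0.05 and a log2 difference beyond 1, 12% as higher and 13.1% as lower. No fold is given because WT is listed at 0. A test of KO1 against the TGF-β libraries, neither of which chose the gene, gave 9.83 ± 0.32 (interval 9.13 to 10.52, adjusted p = 6.16e-12), in a comparison that called 22.7% of genes. The ratio of the means, 2064, has a 95% exact Poisson counting interval of 370.5 to 81528 if the single TGF-β value above 0 is taken as 1 read.

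TGF-β itself did not pass the test for PDPN. The difference from WT was 0.62 ± 0.32 (interval -0.08 to 1.31, adjusted p = 0.241), against a background of 7.84% of genes called, 3.58% as higher and 4.26% as lower. This comparison rests on the 1.35 normalized counts of TGF-β replicate 1 alone, and without replicate 2 the difference becomes 1.24 with an adjusted p of 0.0095.

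The values that chose the gene are these, with no test. On the log2(normalized count + 1) scale KO2 stood 12.20 above WT and the mean of the rescue clones 12.34 above WT. No other of the 14585 genes tested had a larger difference in either comparison, and 10 had a larger difference in KO1 against WT. These comparisons share the WT libraries. PDPN was the only gene of the table that was listed at 0 in both WT libraries and averaged at least 1000 normalized counts over the 4 rescue libraries. Since the gene was picked for its rise in KO2 and rescue, this and its first place in those comparisons restate the choice. KO2 held 3.36 times the normalized counts of KO1, and the 4 libraries did not overlap. The log2 difference of KO1 from KO2 was -1.75, in a comparison that called 6.97% of genes.

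**Figure D1:**
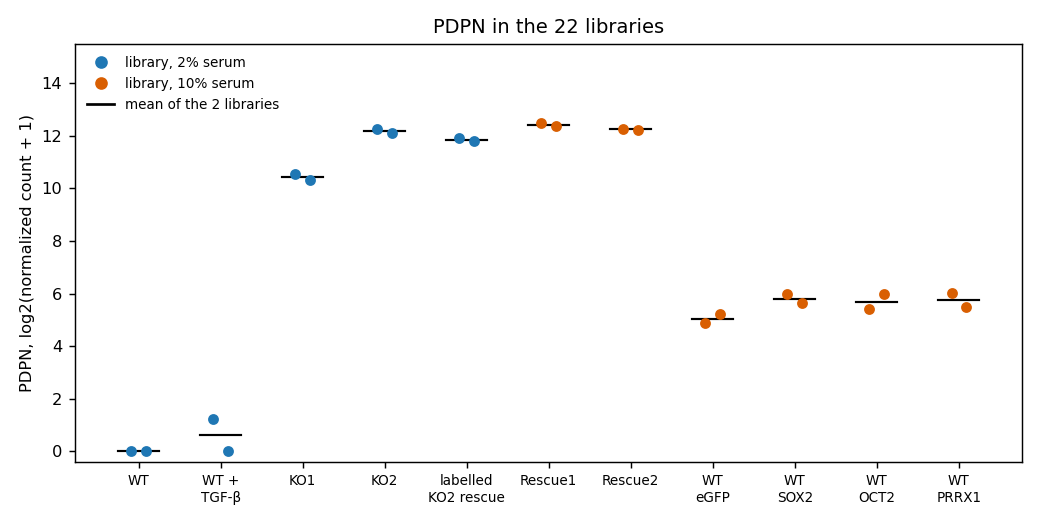
PDPN as log2(normalized count + 1) in each of the 22 libraries (points, blue for 2% serum and orange for 10% serum), with the mean of both libraries of a group as a bar. The knockout, labelled KO2 rescue and rescue libraries lie between 1279 and 5724 normalized counts, the transduced WT lines between 28.4 and 63.8, and WT and TGF-β at or near 0.

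In the rescue clones, which hold SETD2 several times above WT, PDPN stood at 5724 and 5259 normalized counts in Rescue1 and at 4958 and 4809.7 in Rescue2. All 4 libraries were in or above the range of KO2. The mean ratio to KO2 was 1.17 for Rescue1 and 1.04 for Rescue2, and the log2 difference of the rescue mean from KO2 was 0.14, given with no test. Rescue2 overlapped KO2 in normalized counts, but in CPM the rescue libraries, at 412.0 to 473, all lay above the KO2 libraries. Rescue1 and Rescue2 themselves were compared with a test, since their difference did not enter the choice. Rescue1 was 1.12 times Rescue2 and its libraries lay above both of Rescue2, but the difference of 0.17 ± 0.32 did not pass the test (interval -0.53 to 0.86, adjusted p = 0.949), where 0.994% of genes were called. The libraries labelled KO2 rescue held 3832 and 3576 normalized counts, both below KO2, a ratio of 0.789 to its mean.

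Rescue and KO2 differ in serum as well as in SETD2, and the serum-matched lines of the series are the transduced WT lines. The eGFP line held PDPN at 28.4 and 36.2 normalized counts, which is low beside the rescue clones but above the 0 of untransduced WT in 2% serum. The difference from WT was 5.05 ± 0.32 (interval 4.35 to 5.74, adjusted p = 5.17e-08), in a comparison that called 12.7% of genes. The rule used the same WT libraries, whose zeros are thus selected values in this test too. The difference combines serum, transduction and selection, whose parts cannot be told apart. Against this serum-matched line the mean of Rescue1 was 170 times and that of Rescue2 151 times as high, again as a description.

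The SOX2 line held 62.2 and 48.6 normalized counts of PDPN, the OCT2 line 41.8 and 61.7, and the PRRX1 line 63.8 and 43.6. All 6 libraries lay above both eGFP libraries, and the means were 1.71, 1.60 and 1.66 times that of eGFP. None of the differences passed the test over all genes. They were 0.76 ± 0.32 for SOX2 (adjusted p = 0.698, unadjusted p = 0.0344), 0.65 ± 0.32 for OCT2 (adjusted p = 0.735, unadjusted p = 0.0654) and 0.70 ± 0.32 for PRRX1 (adjusted p = 1, unadjusted p = 0.0484), each from limma. The 95% intervals were 0.06 to 1.45, -0.05 to 1.34 and 0.01 to 1.39, so a rise of up to 1.45 on the log2 scale is within them. These comparisons called 0.0206%, 0.0343% and 0.0411% of genes, and they share the eGFP libraries, so they are not separate evidence. In the OCT2 line POU2F2, the gene for OCT2, stood at 1251 and 1121 normalized counts against 279 and 357 in eGFP and 3442 and 3256 in KO1, and in the PRRX1 line PRRX1 stood at 399 ± 6.57 (SD, n = 2) against 0. SOX2 was not analysed here, so the label of the SOX2 line was not checked in this way.

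**Figure D2:**
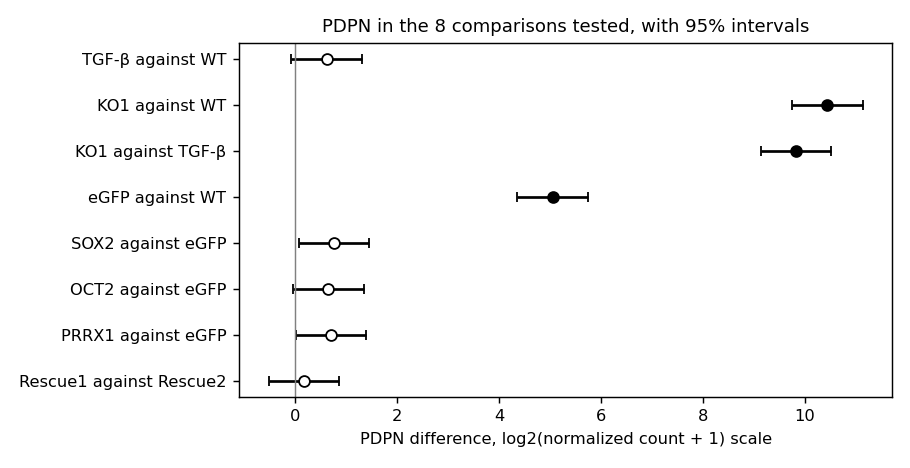
Differences of PDPN on the log2(normalized count + 1) scale in the 8 comparisons tested (points), with 95% intervals (bars). Filled points passed the test, and these are KO1 against WT, KO1 against TGF-β and eGFP against WT, at 10.44, 9.83 and 5.05.

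Ordered by their mean, the groups ran from Rescue1 through Rescue2, KO2, the libraries labelled KO2 rescue and KO1 to the SOX2, PRRX1, OCT2 and eGFP lines, then TGF-β and WT. Neighbours whose libraries overlapped in normalized counts were Rescue2 and KO2, SOX2 and PRRX1, PRRX1 and OCT2, and TGF-β and WT. The widest steps in this order were at either side of the transduced lines. The lowest knockout library was 20.5 times the highest SOX2 library, and the lowest eGFP library 21.0 times the higher TGF-β library. The lowest of the 10 knockout and knockout-derived libraries exceeded the highest of the 8 transduced WT libraries by 20.0 times.

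Molecules that podoplanin works with were called in both directions. Of 12 partners and effectors, 10 passed the filter on low values. In KO1 against WT 2 were higher and 3 lower, in KO2 2 higher and 0 lower against a background of 16.3% of genes called (9.02% higher, 7.29% lower), and in the rescue mean against WT 2 higher and 1 lower where 12% of genes were called (6.11% higher, 5.92% lower). In rescue against KO2 1 was higher and 2 lower where 17.5% of genes were called (7.84% higher, 9.65% lower), and under TGF-β 0 were higher and 2 lower. The median of the list was -0.17, -0.03 and 0.08 in KO1, KO2 and rescue against WT, beside medians of 0.00 over all genes tested. The receptor CLEC-2 (CLEC1B) and the ligand CCL21 were listed at 0 in all 22 libraries.

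CD44, the hyaluronan receptor that podoplanin binds at the membrane, rose beside PDPN in the knockouts, and in the rescue clones its difference from WT did not pass the test. It stood at 11504 and 12409 normalized counts in WT, 66862 and 71305 in KO1 and 38565 and 32523 in KO2. It rose by 2.53 ± 0.08 in KO1 (adjusted p = 2.36e-12) and by 1.57 ± 0.08 in KO2 (adjusted p = 9.52e-10). In the rescue clones it was near WT, at 12484 to 12623, a difference of 0.07 from WT (adjusted p = 0.481) and of -1.49 ± 0.07 from KO2 (adjusted p = 3.44e-10), whereas PDPN stood 0.14 above KO2. The libraries labelled KO2 rescue, with SETD2 no higher than KO2, likewise held CD44 at 11591 and 10677 while PDPN was at 3832 and 3576.

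Among the linkers of the tail, ezrin (EZR) fell in KO1, to 883 and 600.2 normalized counts from 3101 and 4318, and under TGF-β, to 1076 and 1278, but it was at 3316 and 3502 in KO2. Radixin (RDX) fell by 1.01 on the log2 scale in KO1. The row of moesin (MSN) was listed at 0 in both WT libraries and reached at most 26.5, so its calls rest on very low values. RHOA, the small GTPase downstream of podoplanin, was at 276 and 416 in WT and 407 and 303 in KO2, and rose in the rescue clones, to 780.3 and 794 in Rescue1 and 906 and 1012 in Rescue2. The tetraspanin CD9, a binding partner of podoplanin, fell in the rescue clones to between 338 and 540.4 from 1914 and 2039 in KO2. The eGFP line also held CD9 low, at 570 and 701, and the rescue clones differed from it by -0.52 ± 0.26, which did not pass the test (adjusted p = 0.157).

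The enzymes that build mucin-type O-glycans, of which podoplanin carries many, were called in both directions. Of 15, 14 passed the filter. There were 3 higher and 4 lower in KO1, 1 higher and 2 lower in KO2, 2 higher and 1 lower in rescue against WT, 4 higher and 2 lower in rescue against KO2, and 1 higher under TGF-β. Over all genes tested, 25%, 16.3%, 12%, 17.5% and 7.84% were called in these comparisons. ST3GAL1, which adds sialic acid to the core disaccharide, rose in both knockouts and stood above WT in the rescue clones. Unlike PDPN it was higher in KO1 than in KO2, by 1.10 ± 0.22 (adjusted p = 0.0036, limma). It stood at 163 and 171 normalized counts in WT, 2892 and 2473 in KO1, 1517 and 1019 in KO2, and 398 to 878 in the rescue clones. Its rise against WT was 3.99 ± 0.22 in KO1, 2.89 ± 0.22 in KO2 and 1.80 ± 0.19 in rescue (adjusted p = 2.42e-09, 1.51e-07 and 6.79e-06). It fell from KO2 to rescue by 1.09 on the log2 scale. This fall passes the test no longer if libraries are scaled to 1 common total (a difference of -0.79). The eGFP line held 490.2 and 494. Against it the rescue clones differed by 0.24 ± 0.19, which did not pass the test (adjusted p = 0.393, limma). GCNT1, which starts the branched core 2 structure, moved the other way, from 1529 and 1378 in WT to 39.1 and 78.6 in KO1, 89.6 and 111 in KO2 and 204 to 259 in the rescue clones. None of the 7 proteases known to cut podoplanin, the γ-secretase subunits and calpains, was called in any of the 5 comparisons of these lists, although the list's own log2 differences had medians from -0.43 in KO1 to 0.14 in KO2.

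Regulators described for PDPN, which are PROX1, AP-1 subunits, STAT3, SP1 and SP3, were measured for 10 of 11 genes. In KO1 1 was higher, in KO2 1 was lower, in rescue against WT 1 was higher and 1 lower, in rescue against KO2 3 were higher and 1 lower, and under TGF-β 1 was lower, beside the 25%, 16.3%, 12%, 17.5% and 7.84% of all genes called. FOSB, an AP-1 subunit, rose in KO1 to 44.7 and 164 normalized counts from 36.1 and 9.52, while KO2, with more PDPN, held 19.9 and 10.9. In the eGFP line FOSB stood at 6107 and 6462, far above every library with high PDPN. FOSL1 fell in KO2, to 490 and 447 from 1117 and 1564. SP1 fell in the rescue clones, by 1.68 on the log2 scale against WT, but its replicates were far apart, at 536 and 232 in Rescue1.

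Other membrane sialomucins took several courses. Of 8 listed, 5 were tested. In KO1 and under TGF-β 1 was higher and 1 lower, and in KO2 2 were higher and 1 lower. In rescue against WT 3 were higher and 1 lower, and in rescue against KO2 1 was higher. Over all genes tested, 25%, 7.84%, 16.3%, 12% and 17.5% were called in these comparisons. MUC1, the transmembrane mucin of epithelial apical membranes, ran opposite to PDPN in KO1, KO2 and the rescue clones. It fell from 493 and 595 normalized counts in WT to at most 2.20 in KO1 and 11.5 and 0 in KO2, and it was at 4.31 to 19.2 in the rescue clones. The log2 differences from WT were -7.56 ± 0.88 in KO1, -7.26 ± 0.88 in KO2 and -5.71 ± 0.76 in rescue (adjusted p = 6.1e-06, 1.5e-05 and 4.98e-05). The eGFP line held 85.1 and 62.4, between WT and the rescue clones, the same place in the order that it held for PDPN. SELPLG, the selectin ligand PSGL-1, rose in KO1, KO2 and rescue against WT, by 1.55, 2.38 and 1.43 on the log2 scale. CD34 rose in KO2 and in rescue by 2.58 and 2.08, and its difference of 0.62 in KO1 did not pass the test. PODXL rose under TGF-β and in rescue by 2.06 and 3.04 but did not pass the test in either knockout.

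**Figure D3:**
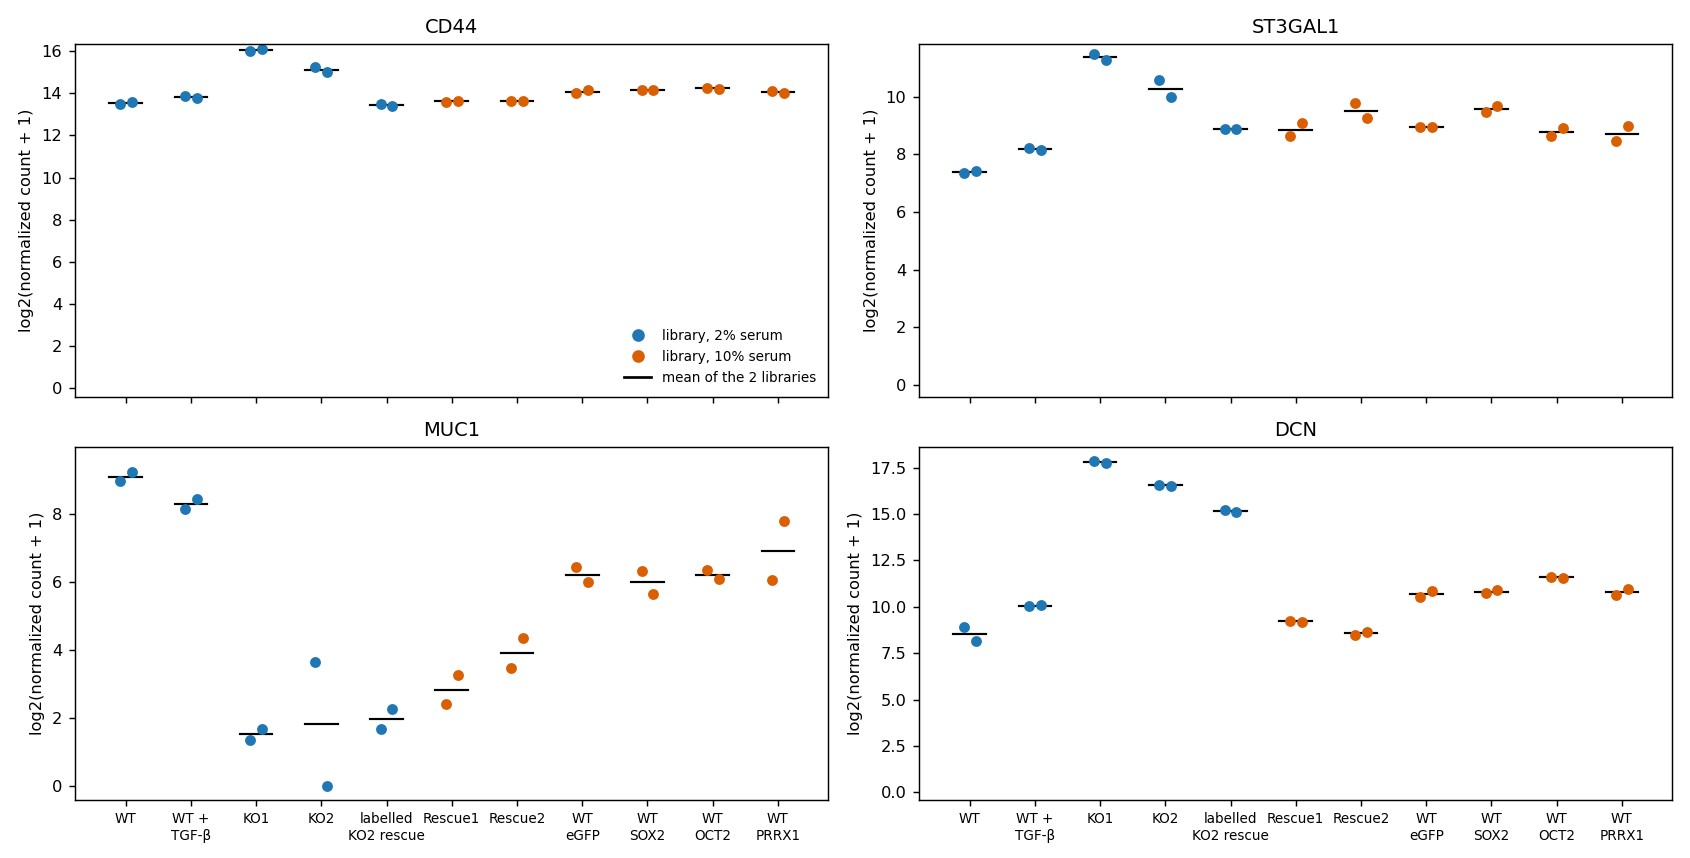
CD44, ST3GAL1, MUC1 and DCN as log2(normalized count + 1) in each library (points, coloured by serum) with group means (bars). CD44 and DCN were high in KO1 and KO2 and near WT in Rescue1 and Rescue2, and MUC1 stayed at 4.31 to 19.2 normalized counts in the rescue clones against 493 and 595 in WT.

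Markers of the cell types that podoplanin labels were examined beside it. Over all genes tested, 12% were called higher and 13.1% lower in KO1 against WT. The shares were 9.02% and 7.29% in KO2, and 6.11% and 5.92% in rescue against WT. In KO1, KO2 and rescue against WT, the called members were 1 higher and 2 lower, 0 and 1, and 1 and 1 of 4 tested podocyte genes, 1 and 2, 2 and 0, and 1 and 0 of 5 alveolar type I genes, 0 and 1, 0 and 0, and 1 and 0 of 3 mesothelial genes, and 1, 2 and 3 higher with 0 lower of 6 lymphatic endothelial genes. For podocytes, WT1 was listed at 0 and NPHS1 and TCF21 were under 10 normalized counts in all libraries, and the list's sum was 776 to 889 in WT, 750.3 to 941 in KO1, 473 to 598 in KO2 and 799 to 1019.8 in the rescue clones. For alveolar type I cells, AQP5 was listed at 0, CLIC5 was under 10 and the sum was 2578 to 3049 in WT and 2944 to 3263 in the rescue clones. Most of that sum was a member called in none of the 5 comparisons, at a mean of 2684 in WT and 2832 and 2854 in Rescue1 and Rescue2. HOPX, a transcriptional cofactor, rose from 3.38 and 1.42 in WT to 136 and 118 in KO2 and was at 83.6 to 151 in the rescue clones. AGER was called higher in KO2, at 48.7 and 21.7 against 0 in WT. Under TGF-β, where PDPN was near 0, 2 of the 5 tested alveolar genes were called higher, beside 3.58% of all genes. These were AGER, at 43.4 and 19.4, and HOPX, at 21.6 and 13.6. AGER was also called higher in the eGFP line, low in PDPN, at a mean of 22.6 against WT. In both Rescue1 libraries, where PDPN was highest, AGER was listed at 0. RTKN2 and EMP2 were called lower in KO1. For mesothelium, WT1 and KLK11 were listed at 0, but the sum was 2623 to 3794 in WT, 1304 to 1467 in KO1, 3720.1 to 3726 in KO2 and 5911 to 6319 in the rescue clones. The eGFP line, serum-matched to the rescue clones and low in PDPN, held 4637 and 4690. Most of this sum was LRRN4 and BNC1, at means of 2563 and 613 in WT and 4155 and 1776 in Rescue1. For lymphatic endothelium LYVE1 was under 10, and the sum of the 8 genes with a row was 10.1 to 22.5 in WT, 137 to 141 in KO1, 165 to 167 in KO2 and 47.8 to 168 in the rescue clones. Most of that rise in the knockouts was KDR, a VEGF receptor, which stood at 123 and 103 in KO1 and at 145 and 126 in KO2, but at 1.62 to 42.0 in the rescue clones, where PDPN was high. The part of these lists in the level of PDPN was not tested.

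The summed level of the fibroblast list was high in the knockouts and low in the rescue clones, but its members did not all move together. Of its 10 genes 7 were tested, with 4 higher and 1 lower in KO1 and 4 higher and 0 lower in KO2. In rescue against WT 1 was higher and 2 lower, and in rescue against KO2 0 were higher and 5 lower. Under TGF-β 3 were higher. Over all genes tested, 12% were called higher and 13.1% lower in KO1, and 9.02% and 7.29% in KO2. The shares were 6.11% and 5.92% in rescue against WT, 7.84% and 9.65% in rescue against KO2, and 3.58% and 4.26% under TGF-β. In KO1 the collagen gene COL3A1 fell by 2.37 on the log2 scale (adjusted p = 0.0167), and COL1A1 passed the test in neither knockout. The summed level was 842 and 12450.4 in WT, 46378 and 47807 under TGF-β, 236650.4 and 223500 in KO1, 103682 and 100069.7 in KO2, 41518 and 39178 in the libraries labelled KO2 rescue, 1398 and 1536 in Rescue1, and 824 and 890.0 in Rescue2. Its part in the level of PDPN was not tested. The chemokines CCL19 and CCL21 were listed at 0 and FAP was under 10 in all libraries. Decorin (DCN), a matrix proteoglycan, made up most of the sum in the knockouts, at 234809 and 221606 normalized counts in KO1 and 98373 and 94978 in KO2 against 477 and 289 in WT. In the rescue clones DCN stood at 363 to 611, a difference from KO2 of -7.67 ± 0.15 (adjusted p = 6.26e-14), and PDPN in those same libraries was at 4809.7 to 5724. THY1, a surface glycoprotein of fibroblasts, gave the same picture, at 1136 and 1135 in KO2 and 5.45 to 12.5 in the rescue clones, but it was at 1725 and 1895 in the eGFP line, where PDPN was low.

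Proximal tubule markers were listed at very different levels. HNF4A and SLC22A6 were listed at 0 and LRP2, SLC34A1 and SLC5A2 were under 10 in every library, whereas PAX8 was at 2322 and 3743 normalized counts in WT. Of 17 listed genes 12 were tested. In KO1 4 were higher and 2 lower, in KO2 3 higher and 1 lower, and in rescue against WT 2 of each. Over all genes tested, the shares called higher and lower were 12% and 13.1%, 9.02% and 7.29%, and 6.11% and 5.92%.

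The genes most like PDPN were sought by Pearson correlation over the 11 group means, among 4367 tested genes whose means span at least 3 log2 units. The groups share clones and serum, so these values describe likeness only. None exceeded r = 0.99, 9 exceeded 0.95 and 38 exceeded 0.9. First was TSPAN18 (r = 0.97), a tetraspanin, which was listed at 0 in WT and stood at 1.89 and 3.87 normalized counts under TGF-β, 381 and 484 in KO1, 657 and 628 in KO2, 487 to 609 in the rescue clones and 34.8 and 42.2 in the eGFP line. Its middle level in the transduced line, like that of PDPN, follows in part from the choice by correlation, which included that group. FOXF2 (r = 0.97), a forkhead transcription factor of mesenchyme, followed, with 4.97 and 9.50 in WT and 198 to 389 in the rescue clones. The others were ENSG00000273564, SOWAHB, EDARADD, CD109, PTCHD4, ENSG00000276495, SCARB1 and PID1, with r from 0.95 to 0.97. The transcript ENSG00000276495 stood at 0 and 8.17 in WT and 344 to 566 in KO1, KO2 and the rescue clones, and at 1.89 and 4.07 in the eGFP line.

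Among the genes most opposite to PDPN were ITGB4, TMEM52B, CLDN16 and LAMA5, with r from -0.98 to -0.96. ITGB4, the hemidesmosomal integrin chain, stood at 3812 and 5723 normalized counts in WT, 233 and 153 in KO1, 199 and 299.6 in KO2, 108 to 247 in the rescue clones, and 878 and 979 in the eGFP line. LAMA5 encodes a laminin chain of the epithelial basement membrane, and CLDN16 a tight junction protein of the thick ascending limb. All 4 stayed low in the rescue clones while PDPN stayed high, which follows in part from their choice by correlation over these groups.

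**Figure D4:**
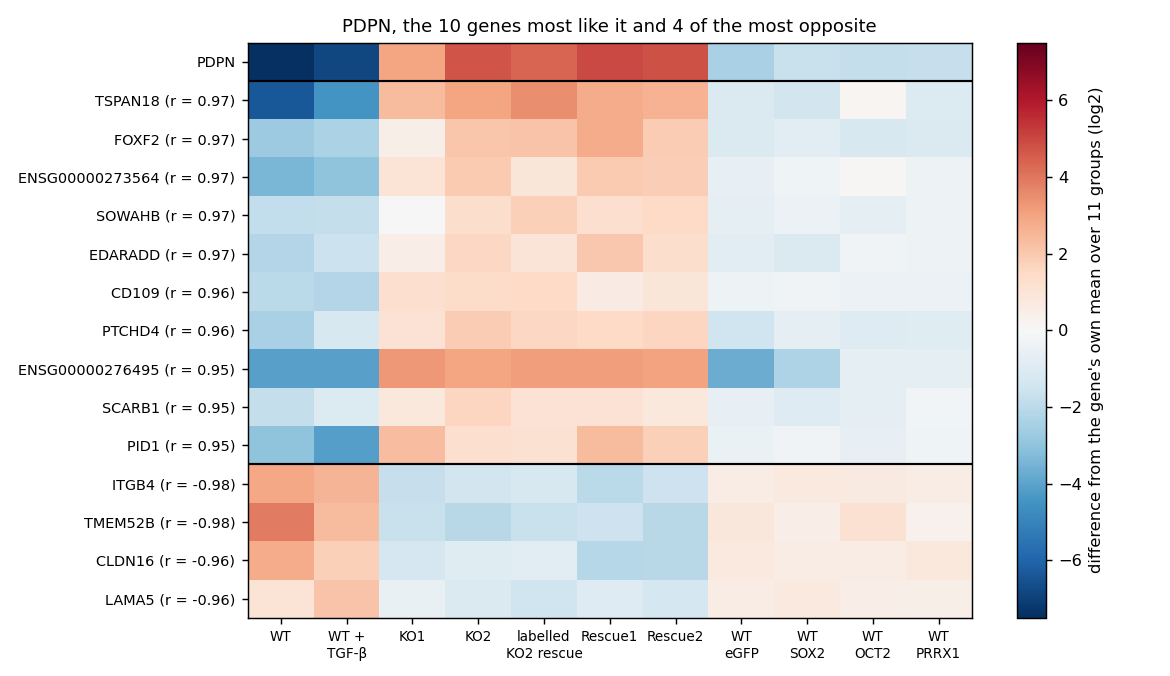
PDPN (top row), the 10 genes most like it and 4 of those most opposite to it, as the difference of each group mean from the gene's own mean over the 11 groups (log2, colour scale), with Pearson's r beside each name. The 10 genes are lower in WT and TGF-β than from KO2 to Rescue2, and the 4 opposite genes, with r from -0.98 to -0.96, run the other way.

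No tested neighbour of PDPN was called higher in KO1, KO2 or rescue against WT. The nearest 5 protein-coding genes with a row before it are PRAMEF15, PRAMEF14, PRAMEF19, PRAMEF17 and PRAMEF20, members of a family of near-identical copies whose reads could be split between copies, and all were listed at 0 in every library. After it, the start of PRDM2, a histone methyltransferase, lies 116.7 kb away, and that gene was called in none of the 5 comparisons, at 610.3 and 634 in WT, 590.4 and 598 in KO2 and 842 to 1147 in the rescue clones. KAZN, the gene for the junction-associated protein kazrin, 309.3 kb away, fell where PDPN rose in the knockouts. Its difference from WT was -1.85 ± 0.12 in KO1 and -1.13 ± 0.12 in KO2 (adjusted p = 1.06e-08 and 3.76e-06), and also -1.66 ± 0.12 under TGF-β (adjusted p = 2.91e-07), where PDPN did not pass the test. In Rescue1 KAZN was at 1074 and 981, near the 974 and 1262 of WT, and in Rescue2 it was above both, at 1693 and 1596. The difference of the rescue mean from WT, 0.23, did not pass the test (adjusted p = 0.127, limma). The eGFP line held 1685 and 1629. TMEM51 and FHAD1, at 1569.1 and 1653.1 kb, were called in none, and EFHD2 did not pass the filter on low values.

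**Figure D5:**
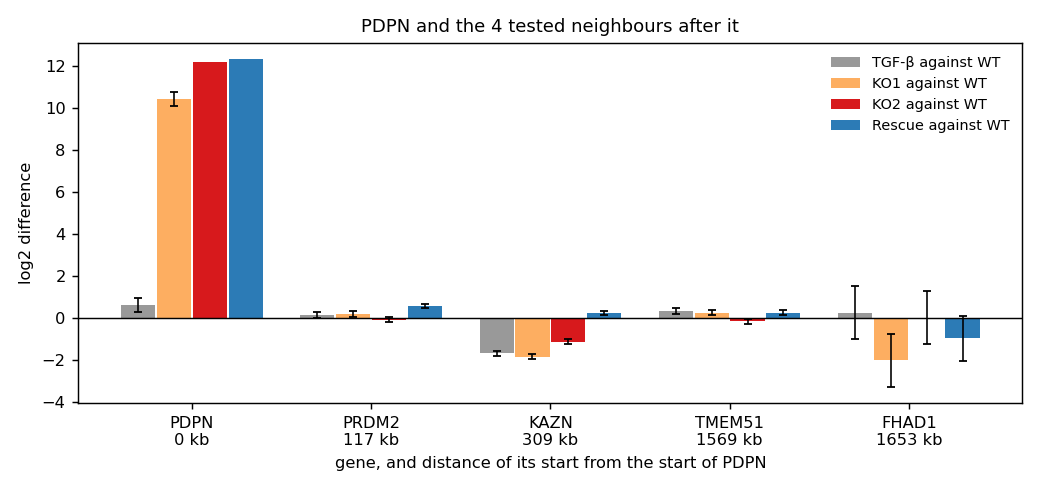
Log2 differences from WT of PDPN and of the 4 tested genes after it, with the distance of each gene's start from that of PDPN in kb. Bars are the differences for TGF-β, KO1, KO2 and the rescue mean, and error bars are standard errors, left out where the difference chose the gene (PDPN in KO2 and rescue, at 12.20 and 12.34).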

How the data were processed

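RNA-seq of RPTEC was deposited by the authors as a table of log2 values for 36859 genes in 22 libraries. Per the submitters' processing notes and the study's methods, stranded mRNA libraries were quantified with Salmon 1.9.0 against Ensembl release 94 transcripts (hg38), and were normalized by the authors with DESeq2 1.26.0. The deposited log2 values, from 11.32 to 21.28, have the form of a variance-stabilizing transformation, in which a count of 0 is 11.32. They were inverted to normalized counts, with no counts of reads used here, so limma took the place of a count test. Symbols were matched for 33878 genes.

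The 14585 genes that reached 10 normalized counts in 2 or more libraries were tested with limma 3.58.1 (R 4.3.3, variance trend, two-sided) on log2(normalized count + 1), all 22 libraries in 1 fit with a mean per group. Benjamini-Hochberg adjustment ran over all genes of a comparison, and a gene was called at an adjusted p under 0.05 and a log2 difference beyond 1. Fold changes of low genes are understated on this scale. On simulated data for KO1 against WT, with 14408 genes, 192 of 200 genes changed 4-fold were called, and 13 unchanged genes were. The changed genes had a WT mean of at least 10 normalized counts, and every gene had the same spread beyond sampling of reads. The simulation thus does not cover genes listed at 0 in WT, such as PDPN, or genes with widely spread libraries. Rescue means Rescue1 and Rescue2 with equal weight. Intervals cover counting error or the spread between libraries only.

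PDPN and the lists of partners, enzymes, regulators and markers were chosen with earlier results of these data known. Named are PDPN, SETD2, list members called in at least 1 of 5 comparisons, the 5 nearest genes on each side, and the 10 genes most and 5 least like PDPN; lists are also described by members listed at 0 or under 10. Of the genes so named, 2 are not reported here. Genes that every cell uses, POU2F2 and PRRX1 were added after the values were seen. Both libraries of a group differed by more than sampling of reads, with a median absolute log2 difference of 0.0635 to 0.174 against 0.0294 to 0.0371 expected. Alternatives were the pseudocount, the filter, scaling, the libraries fitted, a replicate block, the deposited log2 scale and leaving out each library. The upstream sequence was read from hg38 with GENCODE release 44, and promoter windows came from RefSeq.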

Additional observations from a re-analysis of the deposited data

Results flagged for a closer look

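The knockout clones differed from each other in 15 listed genes beside PDPN, which itself was 1.75 lower in KO1 than in KO2 on the log2 scale, a description with no test. The differences below are KO1 minus KO2 from limma, where 6.97% of all genes were called. They were sought only among list members called in at least 1 of 5 comparisons, which include each knockout against WT. The share of all genes is thus not a matched background for them. Lower in KO1 were AGER (-5.07), ROCK2 (-5.04), HOPX (-2.97), THY1 (-2.75), LRRN4 (-2.45), EZR (-2.22), CD34 (-1.96), CDH6 (-1.32), KRT8 (-1.26) and GALNT1 (-1.02). Higher in KO1 were MSLN (4.19), FOSB (2.46), DCN (1.24), FOSL1 (1.14) and ST3GAL1 (1.10). The adjusted p ranged from 2.03e-08 for KRT8 to 0.0239 for CDH6. The largest differences rest on low or widely spread values. AGER was at 0 in both KO1 libraries and at 48.7 and 21.7 in KO2, and ROCK2 at 0 in both and at 148 and 6.33. MSLN was at 47.1 and 78.0 in KO1 and at 10.5 and 0 in KO2. With only the libraries of KO1 and KO2 fitted, the genes called in this comparison fell from 1016 to 1.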

How the results depend on the processing

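Of the PDPN tests, KO1 against WT, KO1 against TGF-β and eGFP against WT passed under every alternative except that eGFP against WT was 0.16 on the deposited log2 values (adjusted p = 0.00372), where a difference of 1 is not reached. Without a library, PDPN was -0.00 to 1.24 in TGF-β against WT, 10.32 to 10.57 in KO1 against WT, 9.21 to 10.44 in KO1 against TGF-β, 4.88 to 5.22 in eGFP against WT, 0.58 to 0.93, 0.37 to 0.92 and 0.43 to 0.97 in SOX2, OCT2 and PRRX1 against eGFP, and 0.11 to 0.23 in Rescue1 against Rescue2. The call changed only for TGF-β, without replicate 2. Differences with no test moved for KO2 from WT to 13.19 and 9.87 with pseudocounts of 0.5 and 5 and 1.83 on deposited values, for Rescue from WT to 13.34, 10.02 and 1.91, and on deposited values for KO1 from KO2 to -0.79 and Rescue from eGFP to 1.75.

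Replicate numbers did not pair the samples (correlations -0.143 to 0.095 over 55 group pairs), and with a replicate block PDPN stayed at 10.44 in KO1 against WT and 5.05 in eGFP against WT. The lists held 124 calls, against 80 with only the libraries compared, of which 75 are among the 124, and 10 on deposited values. With only the libraries compared, genes called fell from 1143 to 0 in TGF-β against WT (1566 at an unadjusted p under 0.05 and a log2 difference beyond 1), 3653 to 1912 in KO1 against WT, 3313 to 1964 in KO1 against TGF-β, 1856 to 715 in eGFP against WT, 145 to 1 in Rescue1 against Rescue2, 1016 to 1 in KO1 against KO2, and 3, 5 and 6 to 0 in SOX2, OCT2 and PRRX1 (442, 425 and 380 by the same unadjusted rule). On deposited values they were 31, 178, 183, 36, 1 and 23 in the first 6 of these, 0 in the factor lines, 94 (from 2378) in KO2 against WT, 33 (1755) in Rescue against WT, 62 (2551) in Rescue against KO2, 35 (608) in labelled KO2 rescue against KO2 and 35 (1915) in Rescue against eGFP. SOX2 gave 7 with a pseudocount of 0.5, 16 with no filter and 6 at the same total. OCT2 gave 3 with a pseudocount of 5, 14 with no filter and 3 with a mean of at least 50, and PRRX1 gave 18 and 3 for the last 2. Scaling to the same total put the median of all genes at -0.39 in KO1 against WT (0 before) and 0.26 in Rescue against KO2 (-0.03 before). Of the 10 genes most like PDPN, 7 remained over 22 libraries and 2 by Spearman. The causes were not tested.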
